A study of Homo sapiens with 6 samples.

Results

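Interferon-stimulated genes are the genes that a cell switches on when interferon, or viral nucleic acid, is sensed. In this pathway RNA sensors of the RIG-I family detect viral RNA and start the production of interferons, which bind receptors on the same and neighbouring cells. Those receptors activate JAK kinases and STAT factors, and a complex that holds STAT2 and IRF9 binds a short promoter element, the interferon-stimulated response element (ISRE). The products of the induced genes block viral entry, translation and replication, conjugate the ubiquitin-like protein ISG15 to other proteins, and feed back on the receptor. A group of 41 such genes was examined here in U87MG, an established human malignant glioma line. It was a fixed list whose genes were found by gene symbol and Entrez gene ID, out of 27257 genes with counts in any library. No measured value was used to find them, but the list was chosen with earlier results of these data known. It holds 3 RNA sensors, 3 interferon regulatory factors (IRFs) and 35 effectors.

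Total RNA of U87MG was compared after 24 h with control lentivirus (U87MG-control, 3 libraries) or with lentivirus carrying the transcriptional cofactor LMO2 (U87MG-LMO2, 3 libraries). All 6 libraries thus came from virus-infected cells of 1 line, and no uninfected library was analysed here. The study's methods describe a CMV-driven vector for LMO2 and a non-targeting hairpin control for its lentiviruses, without saying which control vector these libraries carried, so a difference in the vectors and an effect of LMO2 cannot be told apart. Per the labels and methods, nothing says that the libraries of a group came from separate cultures, so the p-values measure the spread between these libraries, which may be technical.

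Total expected counts ranged from 11428432 to 17892955 per library. For LMO2 itself, the control tables gave 7, 11 and 5 counts and those of U87MG-LMO2 5459, 4503 and 14570, a log2 fold change of 9.70 ± 0.60 (SE), so each library carried the level its label names. Replicate 3 of U87MG-LMO2 held 2.74 times as much LMO2 as the mean of replicates 1 and 2 on the normalised scale. That library also stood apart for many of the genes described here, and its deposited table was damaged. Of 134 genes whose values could not be trusted in it, PARP9 was a member of the list. VIM, a filament gene of mesenchymal glioma cells, stood at 10908 to 13156 CPM (normalised read counts, scaled to the size of each library), whereas the glial genes GFAP (not measured in the damaged table), S100B, SOX2 and OLIG2 were at most 1.06 CPM. Of 8 leukocyte markers, 2 had no reads in any library, PTPRC, CD3E, CD14 and ITGAM were at most 0.601 CPM, LYZ stood at 10.1 to 15.3 CPM and CD68, a lysosomal gene, at 292 to 570 CPM. Their summed level was 405 to 535 CPM in the controls and 351, 307 and 586 CPM in U87MG-LMO2 replicates 1, 2 and 3, with CD68 the main part, and the part of these genes in the results was not tested. Of 4 endothelial markers, CDH5 was at most 0.073 CPM, while PECAM1, KDR and VWF were detected, and the sum was 9.90 to 10.8 CPM per library.

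The promoters of the 41 genes were examined first, because the ISRE is the element through which interferon acts on them. RefSeq windows of 250 bases before to 50 bases after the annotated gene start (assembly GRCh38.p14) were found for 31 of the 41 genes. The ISRE core was searched on both strands as TTTC, any 2 bases and TTTC, which reads as a pair of GAAA on the opposite strand. It was present in 21 of 31 genes (67.7%), against 4.38% of all 27305 genes in the same table. A shorter form with a 1-base spacer, TTTCNTTTC with N for any base, was searched after the first results were seen and was present in 11 of 31 genes (35.5%), against 3.87% of all genes, and the letters of both forms can overlap. One form or the other was present in 26 of 31 genes (83.9%), against 7.83% of all genes. The STAT dimer core TTCNNNGAA, known as the gamma-activated site, was present in 8 of 31 genes (25.8%), against 9.38% of all genes. The 3 genes HERC6, SAMD9L and UBE2L6 held none of these letters in the windows searched. A match is only a run of letters, and no binding was measured. The following windows, written along each gene's own strand, belong to effectors whose levels are described below, with the ISRE core in capitals.
IFIT3, chr10:89332427-89332452, plus strand: agattctgTTTCAGTTTCccctcaag
IFIT5, chr10:89414515-89414540, plus strand: ctattaagTTTCGGTTTCtgaagctt
IFI44, chr1:78649763-78649788, plus strand: acactgagTTTCAGTTTCctttctct
DTX3L, chr3:122564324-122564349, plus strand: agggaagcGAAACTGAAActttgcgc
PARP9, chr3:122564324-122564349, minus strand: gcgcaaagTTTCAGTTTCgcttccct
HERC5, chr4:88457037-88457062, plus strand: acattatgTTTCGTTTTCcactggag
OAS3, chr12:112938323-112938348, plus strand: aaagaaacGAAACTGAAAgcagggaa
RSAD2, chr2:6877624-6877649, plus strand: gtttcaacTTTCAGTTTCacatgtgg
SAMD9, chr7:93118098-93118123, minus strand: tgagaaatGAAACTGAAAccaaacct
IFITM3, chr11:320878-320903, minus strand: actgttgaGAAACCGAAActactggg
ISG15, chr1:1013382-1013407, plus strand: gggaaaggGAAACCGAAActgaagcc
DTX3L and PARP9 are divergent neighbours, and their windows are the same bases read from opposite strands. Both sensors with a window in the table, DDX58 and IFIH1, held a core as well, shown next.
IFIH1, chr2:162318688-162318713, minus strand: agagaatcGAAACAGAAAccaaagtc
DDX58, chr9:32526383-32526407, minus strand: tgcggaggGAAACGAAActagcccg
The DDX58 copy is of the form with the 1-base spacer.

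The promoter windows of OAS1 and IFI44L are shown whole, because these genes had the lowest adjusted p-values on the list, and they differ in their elements. The OAS1 window had no core with the 2-base spacer and a single copy of the 1-base spacer form, on the opposite strand, which begins 17 bases before the gene start (capitals). It also held a gamma-activated site core, absent from the IFI44L window, which starts 168 bases before the gene start and is left in lower case.
OAS1, chr12:112906712-112907011, plus strand: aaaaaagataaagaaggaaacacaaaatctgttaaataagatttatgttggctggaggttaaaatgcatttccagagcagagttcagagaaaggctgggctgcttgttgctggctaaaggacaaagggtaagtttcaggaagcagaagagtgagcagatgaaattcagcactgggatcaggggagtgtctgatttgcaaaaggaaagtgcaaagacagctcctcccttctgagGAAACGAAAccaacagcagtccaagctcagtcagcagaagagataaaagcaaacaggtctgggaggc
The IFI44L window had 2 identical copies of the 2-base spacer form on the opposite strand (capitals), starting 164 and 73 bases before the gene start, inside a stretch of promoter that is repeated.
IFI44L, chr1:78620198-78620497, plus strand: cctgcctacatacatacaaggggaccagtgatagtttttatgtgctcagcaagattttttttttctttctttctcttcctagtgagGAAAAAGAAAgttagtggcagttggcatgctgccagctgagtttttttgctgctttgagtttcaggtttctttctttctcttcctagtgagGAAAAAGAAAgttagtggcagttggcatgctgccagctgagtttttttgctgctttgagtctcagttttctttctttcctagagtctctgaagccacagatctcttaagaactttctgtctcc

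Of the 41 genes, 36 had enough reads to be tested. CMPK2, a mitochondrial nucleotide kinase, had no line in any library, which allows up to 3 counts per library. IFI27 had 0 to 3 counts, BST2, which tethers budding virions, had 0 to 6 counts, and ISG20, an RNA exonuclease, had 3 to 12.1 expected counts per library. PARP9 was left out because of the damaged table.

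Levels between genes were compared as FPKM, which is scaled to gene length. They covered a wide range in U87MG-control cells. IFITM3, an endosomal membrane protein that blocks viral fusion, averaged 156 ± 23.2 FPKM (SD, n = 3), and UBE2L6, the conjugating enzyme of ISG15, averaged 101 ± 17.0 FPKM. IFITM2 followed at 19.9 ± 1.24 FPKM, and IFI35 and IFI44 at 13.2 ± 0.73 and 12.4 ± 1.02 FPKM. Antiviral effectors were spread over this range, with IFI6 at 10.7 FPKM, OAS3 at 9.13 FPKM, IFIT3 at 8.85 FPKM and ISG15 at 8.29 FPKM. At the low end, IFIT1 averaged 0.81 FPKM, RSAD2 (viperin) 0.40 FPKM, MX1 0.36 FPKM and MX2 0.30 FPKM. IFITM3 and UBE2L6 together held between 26.1% and 38.3% of the summed CPM of the 36 tested genes in a library.

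**Figure D1:**
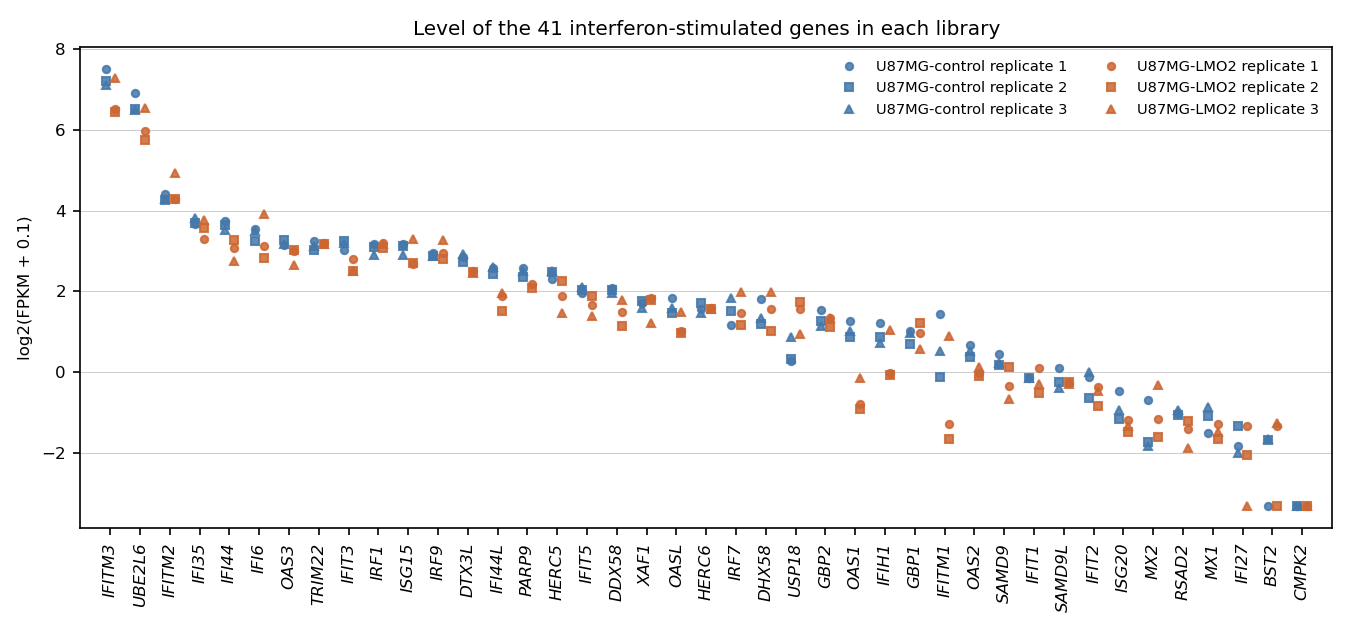
Level of each of the 41 genes in each library, as log2(FPKM + 0.1), ordered from high to low; blue symbols are U87MG-control and orange symbols U87MG-LMO2, with circles, squares and triangles for replicates 1, 2 and 3. IFITM3 and UBE2L6 stand above all others, CMPK2 lies at the bottom with no reads, PARP9 has no point for U87MG-LMO2 replicate 3, and the orange triangle is the highest orange symbol for many genes.

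Differences between the groups were tested with edgeR's quasi-likelihood test, and genes with an adjusted p under 0.05 (Benjamini-Hochberg over 16092 genes) were called. Among all genes tested, 760 were called higher (4.72%) and 443 were called lower (2.75%) in U87MG-LMO2. Of the 36 interferon-stimulated genes tested, 1 was called higher (USP18), 3 were called lower (OAS1, IFI44L and IFI44) and 32 were not called. In the same test, 11 of the 36 had an unadjusted p under 0.05. The share of all genes under that limit was not counted, so these 11 cannot be read as an excess. The same holds for such counts below. The count called lower amounts to 8.33% of the genes tested and the count called higher to 2.78%. The fitted log2 fold change lay below 0 for 25 of the 36 genes (69.4%, against 51.1% of all genes), and its median was -0.28, against -0.01 for all genes. The 3 U87MG-LMO2 libraries lay entirely below the 3 U87MG-control libraries for 11 genes (30.6%, against 16.6% of all genes) and entirely above them for USP18 alone (2.78%, against 17.5%). In RNA from whole cultures, fewer cells expressing a gene and less of its RNA per cell cannot be told apart.

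OAS1 (Entrez 4938), an oligoadenylate synthetase that makes the activator of the antiviral nuclease RNase L, was the member with the largest called change. Control libraries held 4.42, 3.36 and 3.48 CPM of it, and LMO2 libraries 0.61, 0.68 and 1.57 CPM. The groups did not overlap, and replicate 3 was the highest of the U87MG-LMO2 libraries. OAS1 fell by 1.95 ± 0.35 on the log2 scale (SE, 95% interval -2.75 to -1.15), with an adjusted p of 0.018 in edgeR, which is 3.87-fold lower. These are small numbers of reads, with 46 to 51 counts per U87MG-control library against 10, 10 and 26 in U87MG-LMO2. OAS1 stayed called without U87MG-LMO2 replicate 2 or 3, whereas its adjusted p was 0.062 to 0.084 without U87MG-LMO2 replicate 1 or any 1 of the U87MG-control libraries.

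The other members of the OAS family lie beside OAS1 on chromosome 12, apart from OASL, and had smaller fitted differences. OAS3 stood at 58.9, 63.8 and 59.6 CPM against 52.8, 53.6 and 44.8 CPM, without overlap, and was not called (log2 difference -0.27 ± 0.11, adjusted p = 0.16 in edgeR). OAS2 averaged 3.75 ± 0.46 CPM against 2.86 ± 0.61 CPM, and OASL, a related protein that lacks synthetase activity, averaged 6.28 ± 0.90 CPM against 4.44 ± 1.17 CPM (SD, n = 3 each). The groups overlapped for both of these genes, and neither was called, with 95% intervals of -0.89 to 0.13 for OAS2 and -1.01 to 0.02 for OASL on the log2 scale.

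IFI44L (Entrez 10964) and its neighbour IFI44 (Entrez 10561) encode related cytoplasmic proteins that are among the usual markers of an interferon response. IFI44L measured 16.8, 14.1 and 15.4 CPM in control cells and 10.1, 8.38 and 10.8 CPM with LMO2. It fell by 0.66 ± 0.15 on the log2 scale (SE, adjusted p = 0.037 in edgeR). IFI44 measured 23.4, 22.1 and 20.1 CPM in control cells and 14.6, 17.0 and 12.9 CPM with LMO2. It fell by 0.56 ± 0.14 on the log2 scale (SE, adjusted p = 0.047 in edgeR). Neither gene's groups overlapped, but neither call held in every fit that left out 1 library or after a correction for base composition. With 1 library left out, the log2 difference stayed at -0.73 to -0.56 for IFI44L and -0.67 to -0.47 for IFI44. Fits without a control library or without U87MG-LMO2 replicate 1 called 0.875% to 1.38% of all genes in either direction, against 7.48% with all libraries. IFI44L was called without U87MG-LMO2 replicate 3, and its adjusted p was 0.068 to 0.14 when any other single library was left out. IFI44 was called without U87MG-LMO2 replicate 2 or 3, and its adjusted p was 0.13 to 0.16 when any of the remaining libraries was left out. After the trend with GC content was removed from each library, the log2 difference was -0.44 for IFI44L (adjusted p = 0.17) and -0.38 for IFI44 (adjusted p = 0.081), while OAS1 kept its difference of -1.95 (adjusted p = 0.019).

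USP18 (Entrez 11274), the protease that removes ISG15 from proteins and a brake on the type I interferon receptor, was the 1 member called higher. It measured 2.26, 2.33 and 3.48 CPM in control cells and 5.78, 6.58 and 4.13 CPM with LMO2. The lowest U87MG-LMO2 value, that of replicate 3, lay close to the highest U87MG-control value. USP18 rose by 1.03 ± 0.26 on the log2 scale (SE, adjusted p = 0.047 in edgeR), a 2.04-fold difference. It was called without U87MG-LMO2 replicate 3, its adjusted p was 0.083 to 0.16 without any other single library, and it was 0.062 after the GC-content correction. Its expected counts were not whole in 4 libraries, as happens when reads match more than 1 gene, and the level is uncertain to that extent.

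**Figure D2:**
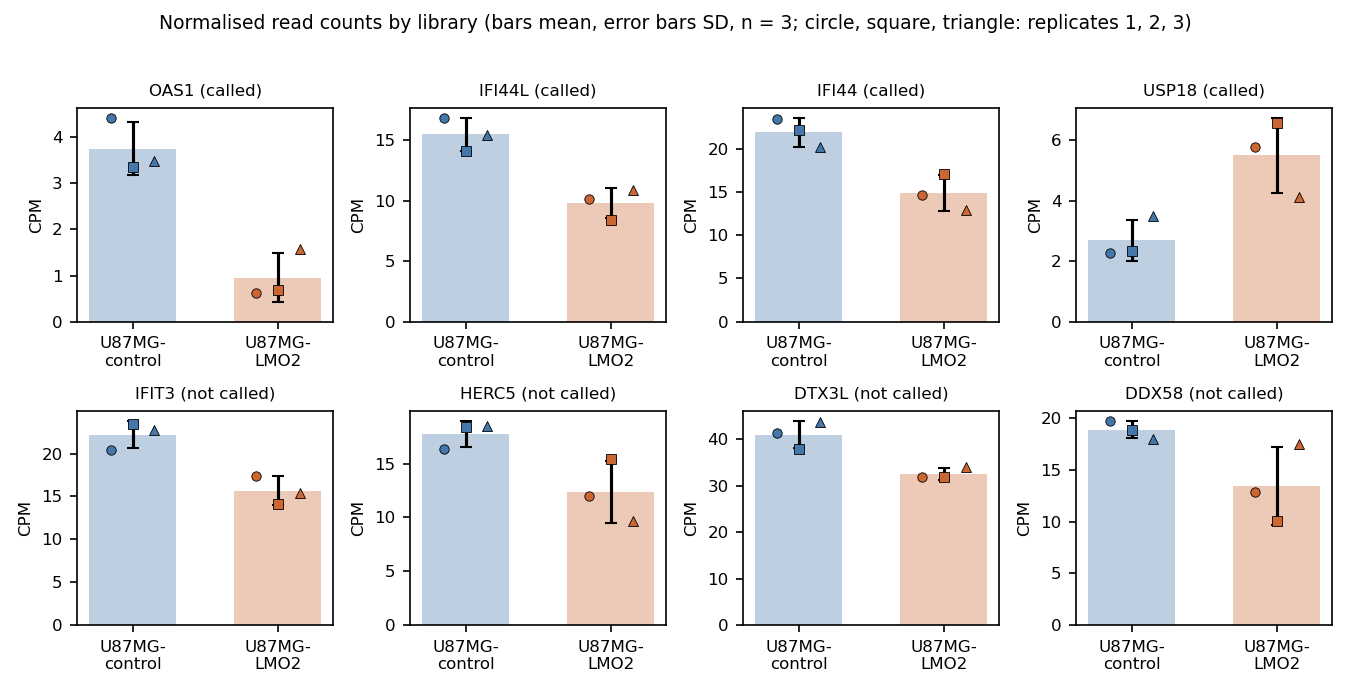
CPM of 8 genes by library: bars give the mean and error bars the SD of 3 libraries, and circles, squares and triangles are replicates 1, 2 and 3. The groups are separate in every panel; the separation of USP18 and DDX58 rests on a narrow gap at U87MG-LMO2 replicate 3 (4.13 against 3.48 CPM, and 17.5 against 18.0 CPM).

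None of the other 4 genes of ISG15 conjugation was called by edgeR or DESeq2, and HERC5 was the 1 with an unadjusted p under 0.05. HERC5, the main ISG15 ligase, measured 16.4, 18.4 and 18.5 CPM against 11.96, 15.4 and 9.64 CPM, without overlap and without a call (log2 difference -0.53 ± 0.18, adjusted p = 0.11 in edgeR). ISG15 itself averaged 5.43 ± 0.51 CPM in control cells, against 5.08 ± 1.60 CPM with LMO2 (SD, n = 3), with a 95% interval of -0.63 to 0.45 for the log2 difference. HERC6 averaged 11.1 ± 0.84 against 11.2 ± 0.69 CPM (interval -0.29 to 0.32). UBE2L6 measured 152, 115 and 114 CPM in control cells and 79.1, 68.2 and 128 CPM with LMO2. For UBE2L6, replicates 1 and 2 were below every U87MG-control library and replicate 3 was above 2 of them.

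The 4 IFIT genes, which lie together on chromosome 10 and encode proteins that bind foreign RNA and block its translation, all had fitted values below 0. None was called by edgeR, and 2 (IFIT3 and IFIT5) had an unadjusted p under 0.05. IFIT3 measured 20.5, 23.5 and 22.7 CPM in control cells and 17.4, 14.1 and 15.5 CPM with LMO2. The groups did not overlap, and the log2 difference of -0.50 ± 0.13 missed the threshold narrowly (adjusted p = 0.052 in edgeR). IFIT3 was called by DESeq2 (adjusted p = 0.029), which called 6.92% of all genes higher and 4.76% lower. It was also called with a gene-length correction (adjusted p = 0.049 in edgeR, 4.86% of all genes higher and 2.64% lower) and without U87MG-LMO2 replicate 3 (adjusted p = 0.033 in edgeR). IFIT5 measured 15.3, 16.0 and 17.0 CPM against 12.3, 14.7 and 11.0 CPM, also without overlap (log2 difference -0.35 ± 0.14, adjusted p = 0.17). IFIT1 and IFIT2 overlapped between the groups, with 95% intervals of -0.55 to 0.45 and -0.92 to 0.33.

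Further effectors were not called. DTX3L, a ubiquitin ligase that works as a partner of PARP9, measured 41.3, 37.9 and 43.7 CPM against 31.9, 31.8 and 34.0 CPM (log2 difference -0.33 ± 0.11, adjusted p = 0.090). PARP9 measured 22.2, 21.2 and 21.4 CPM in U87MG-control and 18.4 and 16.5 CPM in replicates 1 and 2 of U87MG-LMO2, and had an adjusted p of 0.090 in the fit without replicate 3. Its FPKM was 5.85, 5.0 and 5.54 in control cells and 4.43 and 4.15 in those replicates, and the authors' mean implies 5.18 for replicate 3, so the groups overlapped. SAMD9, an antiviral restriction factor, measured 8.68, 7.08 and 7.34 CPM against 4.70, 6.95 and 3.98 CPM (log2 difference -0.57 ± 0.23, adjusted p = 0.16). RSAD2, a radical enzyme that makes a chain-terminating nucleotide, measured 1.42, 1.33 and 1.46 CPM against 0.97, 1.17 and 0.66 CPM (log2 difference -0.57 ± 0.29, adjusted p = 0.26). For DTX3L, SAMD9 and RSAD2 the U87MG-LMO2 libraries were all below the controls, by amounts that the spread between 3 libraries did not separate from 0 after adjustment.

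The membrane proteins of the IFITM family, neighbours on chromosome 11, differed widely between the U87MG-LMO2 libraries. IFITM3 measured 118, 96.1 and 89.0 CPM in control cells and 58.5, 57.0 and 110 CPM with LMO2. Replicates 1 and 2 of U87MG-LMO2 were well below every control and replicate 3 was above 2 of them, and the gene was not called (log2 difference -0.43 ± 0.25, adjusted p = 0.31 in edgeR). IFITM1, at 1.85, 0.58 and 0.94 CPM against 0.21, 0.16 and 1.35 CPM, showed the widest gap between replicate 3 and the other U87MG-LMO2 libraries, 7.31 times their mean. IFITM2 averaged 14.1 ± 0.90 against 17.0 ± 5.52 CPM (interval -0.21 to 0.76). These 3 genes are closely related in sequence and had fractional counts in all 6 libraries, so the reads of each may belong in part to the others.

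Other effectors showed no detectable difference at this depth, which does not show that they were equal. GBP1 and GBP2, interferon-induced GTPases, had 95% intervals of -0.39 to 0.53 and -0.40 to 0.38. MX1 and MX2, dynamin-like GTPases that block viral nucleocapsids, had 7 to 37 counts per library and intervals of -1.05 to 0.30 and -0.57 to 1.88. The intervals were -0.17 to 0.34 for TRIM22, -0.45 to 0.38 for XAF1, -0.49 to 0.26 for IFI35, -0.67 to 0.69 for IFI6 and -0.54 to 0.37 for SAMD9L. The narrowest of these, TRIM22, was measured at 25.1 to 30.1 CPM in all 6 libraries.

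The 3 RNA sensors were examined apart from the effectors. None was called by edgeR or DESeq2, and 1 of them, DDX58, had an unadjusted p under 0.05. DDX58 (RIG-I, Entrez 23586) measured 19.7, 18.9 and 18.0 CPM in control cells and 12.9, 10.0 and 17.5 CPM with LMO2. The groups were separate by a narrow gap, and the log2 difference was -0.48 ± 0.19 (adjusted p = 0.16). IFIH1 (MDA5, Entrez 64135), the sensor of long double-stranded RNA, measured 5.81, 4.75 and 4.01 CPM against 2.50, 2.25 and 5.30 CPM. Its replicates 1 and 2 of U87MG-LMO2 were below all controls and its replicate 3 was above 2 of them (log2 difference -0.52 ± 0.33, adjusted p = 0.36). DHX58 (LGP2, Entrez 79132), a modulator of the other sensors, measured 8.50, 5.55 and 6.43 CPM against 6.71, 4.64 and 10.6 CPM, with a log2 difference of 0.11 ± 0.30 (adjusted p = 0.85). Without U87MG-LMO2 replicate 3, the log2 differences were -0.72 for DDX58 (adjusted p = 0.0090), -1.02 for IFIH1 (adjusted p = 0.019) and -0.25 for DHX58 (adjusted p = 0.50).

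The 3 IRFs, the transcription factors of the pathway, had fitted values slightly above 0 and none was called by edgeR or DESeq2 or had an unadjusted p under 0.05. IRF1, which interferon gamma induces, measured 31.5, 30.0 and 26.3 CPM against 31.7, 29.7 and 34.5 CPM (95% interval -0.14 to 0.40). IRF7, the amplifier of interferon alpha production, measured 4.25, 5.40 and 7.04 CPM against 5.31, 4.36 and 8.50 CPM (interval -0.53 to 0.77). IRF9, the DNA-binding partner of STAT2, measured 12.9, 12.2 and 12.2 CPM against 12.6, 11.5 and 17.5 CPM (interval -0.24 to 0.56). For all 3 factors the groups overlapped and replicate 3 was the highest U87MG-LMO2 library. The median log2 fold change was 0.13 for the 3 IRFs, -0.48 for the 3 sensors and -0.31 for the 30 effectors tested.

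**Figure D3:**
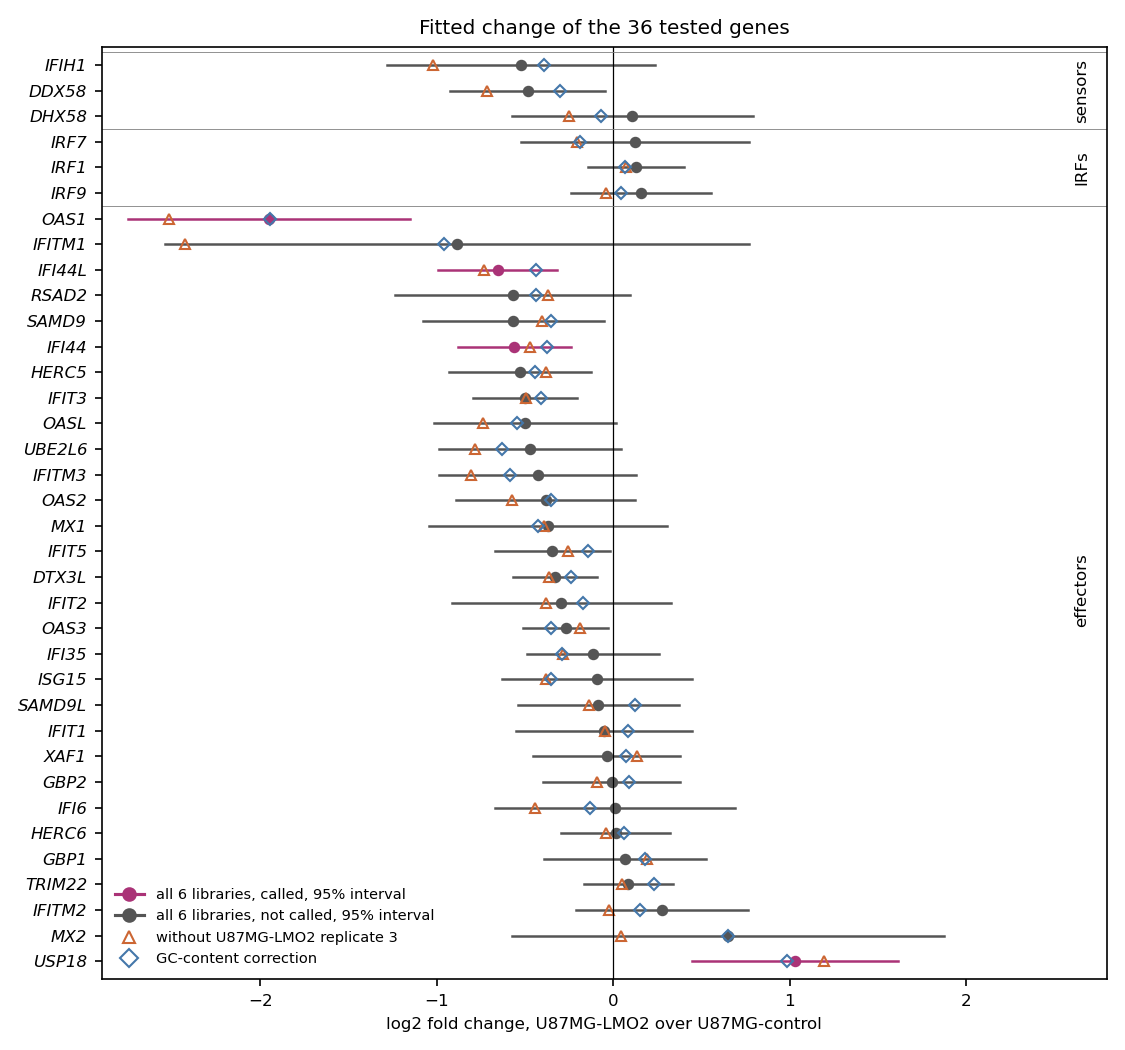
Fitted log2 fold change of the 36 tested genes, U87MG-LMO2 over U87MG-control; filled circles and lines give the estimate from all 6 libraries with its 95% interval, in purple where the gene was called. Open triangles (without U87MG-LMO2 replicate 3) lie left of the circles for the 3 sensors, OAS1, IFITM1, IFITM3 and UBE2L6, and open diamonds show the estimate after the GC-content correction.

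The members were also compared library by library. The median log2 difference of the 36 genes from the U87MG-control mean was -0.32 and -0.33 in U87MG-LMO2 replicates 1 and 2 and -0.02 in replicate 3, while the U87MG-control libraries lay at 0.10, -0.06 and -0.04. Replicate 3 was the highest of the U87MG-LMO2 libraries for 24 of the 36 genes (66.7%, against 40.2% of all genes). U87MG-control replicate 1 was likewise the highest of its group for 23 of the 36 (63.9%), where the share of all genes was not counted. Without U87MG-LMO2 replicate 3, 38 of the 41 genes could be fitted. Of these, 11 were called lower (28.9%, against 6.81% of all genes) and USP18 alone higher (against 7.98% of all genes). The genes called lower in that fit were OAS1, IFI44, IFI44L, IFIT3, OASL, IFITM1, IFITM3, UBE2L6, DTX3L, DDX58 and IFIH1. With U87MG-LMO2 replicate 2 left out instead, 3 were called lower (OAS1, IFI44 and HERC5) in a fit that called 1.86% of all genes lower and 3.54% higher. With U87MG-LMO2 replicate 1 left out, none was called by edgeR (6 had an unadjusted p under 0.05), in a fit that called 1.38% of all genes in either direction. With U87MG-control replicate 1, 2 or 3 left out, none was called either (8, 6 and 5 had an unadjusted p under 0.05), and 1.03%, 1.08% and 0.875% of all genes were. Replicate 3 was also the library with the most LMO2 and with the damaged table, and the part of either in these values was not tested.

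Base composition moved with the groups and most with the same library. Over all genes with a GC value, each library's deviation from the mean of all libraries was set against GC content. Spearman rho was -0.41, -0.22 and -0.29 in U87MG-control replicates 1, 2 and 3. It was higher in every U87MG-LMO2 library, at 0.20, -0.04 and 0.51 in replicates 1, 2 and 3. The part of this trend in the differences between the groups was not tested. The largest value was that of U87MG-LMO2 replicate 3. Across the 36 genes, the log2 ratio of replicate 3 to the mean of replicates 1 and 2 had a Spearman rho of 0.55 with the GC content of the transcript, and across all 14458 genes with a GC value it was 0.39. These genes share the same libraries, so the values are descriptions. Among the 9 list members above 55% GC, which include IFITM3, UBE2L6, ISG15 and IRF7, the median log2 ratio was 0.80, against 0.20 for all genes of that range. In the 5 members below 40% GC, which include IFI44, IFI44L, IFIT5 and SAMD9, it was -0.29, against -0.26 for all genes. From 40% to 45%, 45% to 50% and 50% to 55% GC, it was 0.04, 0.82 and 0.12 in the members. These ranges held 12, 4 and 6 members, and all their genes lay at -0.13, -0.04 and 0.06. The median fitted log2 fold change of the members below 40% GC was -0.56, against -0.20 for all genes of that range. In the other 4 ranges, from low to high GC, it was -0.31, -0.19, -0.32 and 0.01 in the members. All genes of those ranges lay at -0.13, -0.03, 0.05 and 0.18. With the GC trend removed, OAS1 was the 1 member called (all genes, 2.27% lower and 3.46% higher), and the median over the members was -0.26. Over the members, rho between fold change and GC content was then -0.09 (from 0.38 before). Over all 14458 genes it was 0.0074 (from 0.41 before).

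**Figure D4:**
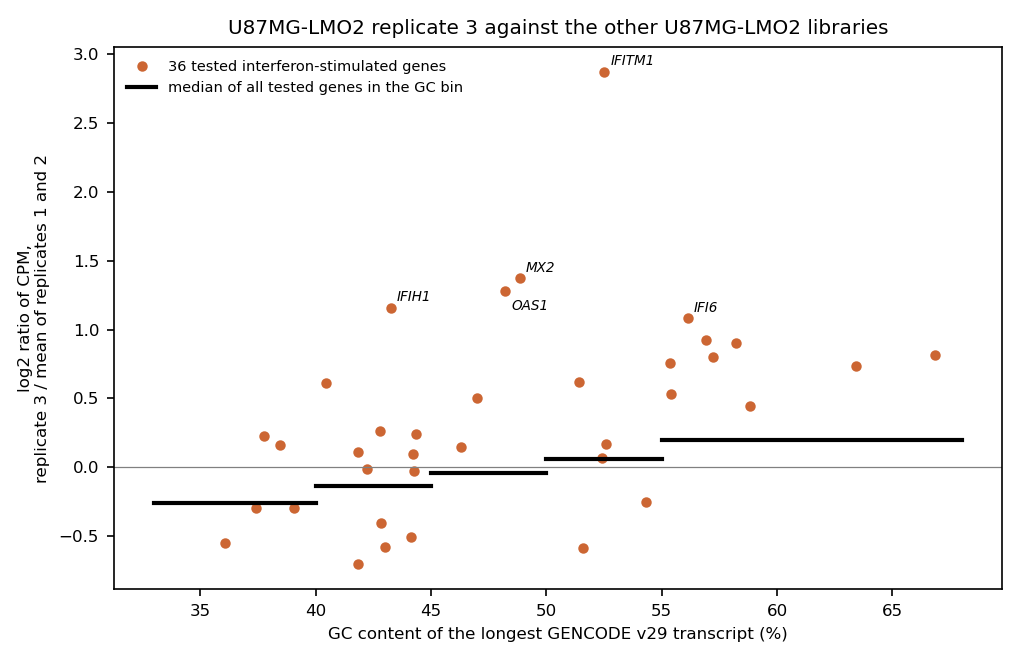
Log2 ratio of CPM in U87MG-LMO2 replicate 3 to the mean of replicates 1 and 2 (vertical axis) against GC content of the longest annotated transcript in percent (horizontal axis); points are the 36 tested genes and black bars the median of all tested genes in each GC range. IFITM1, MX2, OAS1, IFIH1 and IFI6 lie above 1, and the black bars rise from -0.26 below 40% GC to 0.20 above 55% GC.

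The upstream parts of the pathway were read from a wider list of 53 genes, of which 28 were tested. Of the 28, 2 were called higher and 2 lower (7.14% each, against 4.72% and 2.75% of all genes). The 21 interferon genes, IFNB1 among them, had no line in any library. The 6 receptor chains tested had no call by edgeR or DESeq2, and 1 had an unadjusted p under 0.05. IFNAR1 and IFNAR2, the type I receptor chains, had log2 differences of -0.16 ± 0.14 and -0.05 ± 0.13 (adjusted p = 0.52 and 0.82 in edgeR). STAT2 had a log2 difference of 0.02 ± 0.17 (adjusted p = 0.96). Called lower were IFI16, a sensor of foreign DNA, at 155, 134 and 132 against 79.5, 81.3 and 77.3 CPM (log2 difference -0.82, adjusted p = 0.0050), and TBK1, the kinase that activates IRF3 (-0.53, adjusted p = 0.033). Called higher were SOCS3, a feedback inhibitor of JAK kinases (0.84, adjusted p = 0.013), and TRAF3, a signalling adaptor (0.39, adjusted p = 0.038). IFI16 was called in all 6 fits that left out 1 library, whereas SOCS3 was called in 3 of them and TBK1 and TRAF3 only without U87MG-LMO2 replicate 3.

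Of 50 further interferon-stimulated genes outside the list, 45 were tested, 1 was called higher (2.22%, against 4.72% of all genes) and 3 lower (6.67%, against 2.75%), and the median log2 fold change was -0.16. LY6E, a membrane protein that acts on viral entry, had 3.64, 2.41 and 2.95 CPM against 0.79, 0.48 and 1.14 CPM (log2 difference -1.87, adjusted p = 0.017). TRIM5 and PARP14 were lower by smaller amounts (log2 differences -0.62 and -0.68, adjusted p = 0.020 and 0.044), and IFI30, a lysosomal reductase used in antigen processing, was higher (1.10, adjusted p = 0.0063). The MHC class I genes are also induced by interferon. Of 19 tested, 4 were called higher (21.1%, against 4.72% of all genes), among them HLA-B, HLA-G and NLRC5 (log2 differences of 0.64, 1.02 and 0.74), and the median was 0.31. With the GC-content correction, and likewise with a replicate block, 1 of the 19 was called. Those 2 fits called 5.74% and 3.58% of all genes in either direction. HLA-B, HLA-G and NLRC5 were each called in 2 of the 6 fits that left out 1 library. LY6E and TRIM5 were called in 2 of these 6 fits, PARP14 in 1 and IFI30 in all 6. No test was made of the difference between these lists.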

How the data were processed

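RNA of U87MG was sequenced by a service company. For each library the authors deposited expected counts per gene (raw, often fractional, and without any scaling) and FPKM values, which the authors scaled to gene length and mapped reads. The submitters' processing notes name Bowtie2, BWA and GRCh38.p12 without their roles. Genes with no line in a library were taken as 0 counts. The deposited comparison table holds group mean FPKM, a log2 ratio and a probability. Only the means were used, to check the library tables: all 27259 genes matched for U87MG-control and 27125 for U87MG-LMO2 (tolerance 0.001). The other 134 genes, 129 without a line in the damaged table of replicate 3, held 0.35% of the control counts and were left out.

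Expected counts were rounded and tested with edgeR 4.0.16 in R 4.3.3 (filterByExpr, TMM, glmQLFit and glmQLFTest, 2-sided, no block), with Benjamini-Hochberg adjustment over 16092 genes. CPM were scaled by TMM library sizes. Intervals are 95% and, like the limit of 3 counts for a count of 0, do not cover repeated reads of 1 molecule. Values by library are given for genes called or not overlapping between groups at 1 CPM or more on average, and for sensors and IRFs; others are named with values after these were seen. The genes and lists were chosen with earlier results of these data known. Alternatives were DESeq2 1.42.0, upper-quartile scaling, no filter, at least 10 counts in every library, limma 3.58.1 on log2(FPKM + 1) and log2(FPKM + 0.1), a replicate block and each library left out. Corrections for GC content and gene length (lowess span 0.3) were chosen after seeing the data. GC content was that of the longest GENCODE transcript of a gene. Gene length was the median over libraries of the length deposited with the counts. Some genes of the fixed lists are not reported here. The tests were tested on simulated data, in which a GC trend of an assumed size, placed in the LMO2 group, made most uncorrected edgeR calls false and the GC-content correction removed most of these. The simulated trend was the same in every library of that group, whereas the trends of the measured libraries differed. It therefore does not say how many calls in these data were false. Promoters came from a RefSeq table of GRCh38.p14.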

Additional observations from a re-analysis of the deposited data

How the results depend on the processing

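All 15 alternatives kept the median log2 fold change of the interferon-stimulated genes below 0, from -0.37 to -0.15 (-0.26 with the GC-content correction), and 23 of the 36 genes kept their direction in each of them. The counts of calls were less stable. The 1 gene called higher, USP18, was called in 6 alternatives, with 0 called higher by limma with either pseudocount, with the GC-content correction and with the replicate block. Of the 3 called lower, 1 (OAS1) stayed with the GC-content correction and 1 (OAS1) with the replicate block. The block changed calls of IFI44L (adjusted p = 0.067), IFI44 (0.081) and USP18 (0.096). Same-numbered libraries had correlations of -0.12, -0.00 and -0.04 of their deviations from the group means. No pairing by replicate number was seen, but these values cannot exclude a weak shared batch. With the block, 387 genes of all were called higher and 189 lower, 2 interferon pathway genes and 1 MHC class I gene were called, and the GC-content correction also left 1 MHC class I gene. DESeq2 called 691 genes of all lower. Leaving out 1 library gave 102 to 1312 genes called higher and 42 to 1119 called lower, 0 to 1 interferon-stimulated gene higher and 0 to 11 lower, 1 to 8 pathway genes, 1 to 9 further interferon-stimulated genes and 0 to 7 MHC class I genes. Each of these maxima belongs to the fit that left out U87MG-LMO2 replicate 3. The cause was not tested. Uncalled genes whose fitted log2 difference changed sign with 1 library left out had these ranges: IFIT1 -0.23 to 0.10, IFI6 -0.45 to 0.24, IFI35 -0.28 to 0.022, ISG15 -0.38 to 0.052, DHX58 -0.25 to 0.35, IRF7 -0.21 to 0.33, IRF9 -0.040 to 0.28, HERC6 -0.040 to 0.078, XAF1 -0.14 to 0.13, IFITM2 -0.025 to 0.41, SAMD9L -0.19 to 0.11, GBP1 -0.088 to 0.19, GBP2 -0.098 to 0.12. Other changes of sign were of IFIT1 (0.081), DHX58 (-0.071), IRF7 (-0.19), XAF1 (0.070), SAMD9L (0.13), GBP2 (0.087) and IFI6 (-0.13) with the GC-content correction, GBP2 (0.011) with the gene-length correction, IFI6 (-0.072) with the replicate block, and, by limma with pseudocounts of 1 and 0.1, IFI6 (-0.12 and -0.13) and HERC6 (-0.011 and -0.013). Genes under about 50 counts per library, such as MX1, MX2, RSAD2 and IFITM1, had intervals too wide to show differences of the size seen for IFI44.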
